A study of Mus musculus with 6 samples.

Results

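Catalase and 9 other enzymes that remove reactive oxygen species, or renew the carriers that do so, were followed in heart muscle cells in which a transcription factor of the unfolded protein response had been delivered by virus. The 10 genes were Cat, Sod1, Prdx3, Prdx5, Prdx6, Gpx1, Gpx4, Txnrd1, Nqo1 and Hmox1, taken by name from a table of 23337 genes. All 10 were found in it, and all 10 were among the 14587 genes that passed the filter on low counts.

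The 6 libraries fell into 3 groups of 2, named AAV-GFP, AAV-XBP1S and AAV-ATF6N after the adeno-associated virus (AAV) that wildtype mice received at postnatal day 1. At 4 weeks of age their cardiomyocytes were isolated by the Langendorff method, a digestion of the perfused heart, followed by fluorescence-activated sorting. AAV-GFP carries green fluorescent protein and served as the control, XBP1S commonly stands for spliced XBP1, which is active, and ATF6N for the part of ATF6 that enters the nucleus. All 3 groups carried virus, so none of them shows the level without one. The promoter of the transgene, the viral dose and the gate of the sort are not stated in the labels, nor whether the libraries of a group came from separate animals, so p-values measure the spread between these libraries, which may be technical.

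Superoxide made by mitochondria and oxidases is converted to hydrogen peroxide by superoxide dismutases, and the peroxide is then removed by catalase in the peroxisome and by peroxiredoxins and glutathione peroxidases elsewhere. Peroxiredoxins are recharged by thioredoxin and its reductase, and several of these genes are known targets of the transcription factor NRF2. The heart, with its dense mitochondria, depends on them. Cat has been described as a target of ATF6 in the mouse heart.

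The sequences just upstream of Cat and Prdx3 are shown because Cat had the largest fold difference between the factors among the 10 genes and Prdx3 the smallest. Each is the 250 bases before the first transcribed base, from RefSeq on GRCm38.p6, read 5′ to 3′ on the minus strand, at chr2:103485154-103485403 for Cat and chr19:60874539-60874788 for Prdx3. Capitals mark CCAAT boxes on either strand (CCAAT or ATTGG), which form the first part of the ER stress element that ATF6 binds together with NF-Y.
Cat: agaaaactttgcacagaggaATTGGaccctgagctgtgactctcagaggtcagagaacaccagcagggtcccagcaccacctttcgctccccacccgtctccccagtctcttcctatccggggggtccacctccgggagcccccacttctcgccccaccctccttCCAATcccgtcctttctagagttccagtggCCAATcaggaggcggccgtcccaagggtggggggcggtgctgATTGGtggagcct
Prdx3: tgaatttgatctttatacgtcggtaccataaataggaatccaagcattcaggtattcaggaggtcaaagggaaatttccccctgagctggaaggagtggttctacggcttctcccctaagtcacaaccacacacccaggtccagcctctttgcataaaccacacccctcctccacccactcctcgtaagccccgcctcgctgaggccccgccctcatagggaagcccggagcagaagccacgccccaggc
The Cat stretch held 4 CCAAT boxes and that of Prdx3 held 0. Windows from 250 bases before to 50 after the start were also searched. The set of RefSeq windows used here covered 8 of the 10 genes and held none for Prdx6 and Hmox1, which were not searched. CCAAT boxes lay in at least 1 window of 4 of these 8 genes (Cat, Gpx4, Sod1 and Txnrd1) and in 37.4% of all 32851 windows. Several genes have more than 1 window, so the shares are not of the same kind. The full ER stress element (CCAAT and CCACG with 9 bases of any kind between them), its second form (ATTGG and CCACG with 1 base between them) and the core TGACGTG were found in no window of the 8 genes, against 0.119%, 0.0365% and 2.01% of all windows, on either strand. The core of the antioxidant response element (TGACNNNGC), which NRF2 binds, was found in 1 window each of Sod1 and Txnrd1 and in 12.4% of all. These matches describe letters in a window and say nothing about binding, and the absence of a match says only that these letters were not there. An ER stress element and its second form contain a CCAAT box by construction, so those searches overlap.

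Libraries held 67702482 to 112049342 counts. Levels are given as CPM, which are counts scaled to library size, and a floor of 3 counts equals 0.0305 to 0.0459 CPM, far below every one of the 10 genes. The delivered factors were checked first. Atf6 stood at 44.9 and 70.6 CPM in AAV-GFP, 77.0 and 111 CPM in AAV-XBP1S and 162 and 158 CPM in AAV-ATF6N, and Xbp1 at 98 and 115, 160 and 166, and 145 and 152 CPM. Each was higher in the libraries named after it than in AAV-GFP, but neither passed the test (adjusted p = 0.126 for Atf6 in AAV-ATF6N and 0.307 for Xbp1 in AAV-XBP1S). In the authors' deposited table Atf6 passes in AAV-ATF6N, at 1.47 on the log2 scale (adjusted p = 0.000799). Derl3, which serves ER-associated degradation, rose in both treated groups, and Hspa5, the main ER chaperone, rose in AAV-ATF6N with a log2 fold change of 1.37 (SE 0.19, adjusted p = 0.0462). Unless another source is named, an adjusted p is from the quasi-likelihood test of edgeR, with Benjamini-Hochberg correction across the 14587 genes. The comparisons against AAV-GFP share its 2 libraries, and the direct comparison of the factors shares 2 libraries with each. Cardiomyocyte markers were abundant, with all 10 found and a summed level of 98941 to 144494 CPM. In such pooled cells a lower level of a gene can mean fewer cells that hold it or less RNA per cell, and these cannot be told apart.

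AAV-GFP replicate 1 stood apart from the other 5 libraries on the leading principal component, which held 43.9% of the variance. Rn45s, a precursor of ribosomal RNA, took 0.337% of its counts and 0.0319% to 0.130% of those elsewhere. Short genes were also relatively high in it, which touched several of the 10 genes, as described further on. For that reason the results on Cat, Sod1, Prdx5 and Hmox1 are given with and without it.

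Levels of different genes were compared as RPKM, that is CPM per kilobase of gene. Over the 6 libraries, Prdx5 had the highest mean level at 756 RPKM (SD 304), followed by Prdx3 at 328 (SD 15.1). Prdx6 at 170 (SD 17.7), Gpx1 at 137 (SD 31.3) and Gpx4 at 125 (SD 31.0) came next. Cat at 94.5 (SD 34.1) and Sod1 at 93.5 (SD 60.5) stood close together, ahead of Nqo1 at 40.2 (SD 4.52), Txnrd1 at 17.1 (SD 4.47) and Hmox1 at 5.29 (SD 1.72). The peroxiredoxins thus led the order and the inducible heme oxygenase closed it. The ranges of Prdx6 and Gpx1, of Gpx1 and Gpx4, of Gpx4 and Cat and of Cat and Sod1 overlapped. Within single libraries Prdx6 was above Gpx1 and Gpx1 above Gpx4 in 6 of 6, while Gpx4 was above Cat, and Cat above Sod1, in 4 of 6. The order is therefore unsettled between Gpx4, Cat and Sod1.

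**Figure D1:**
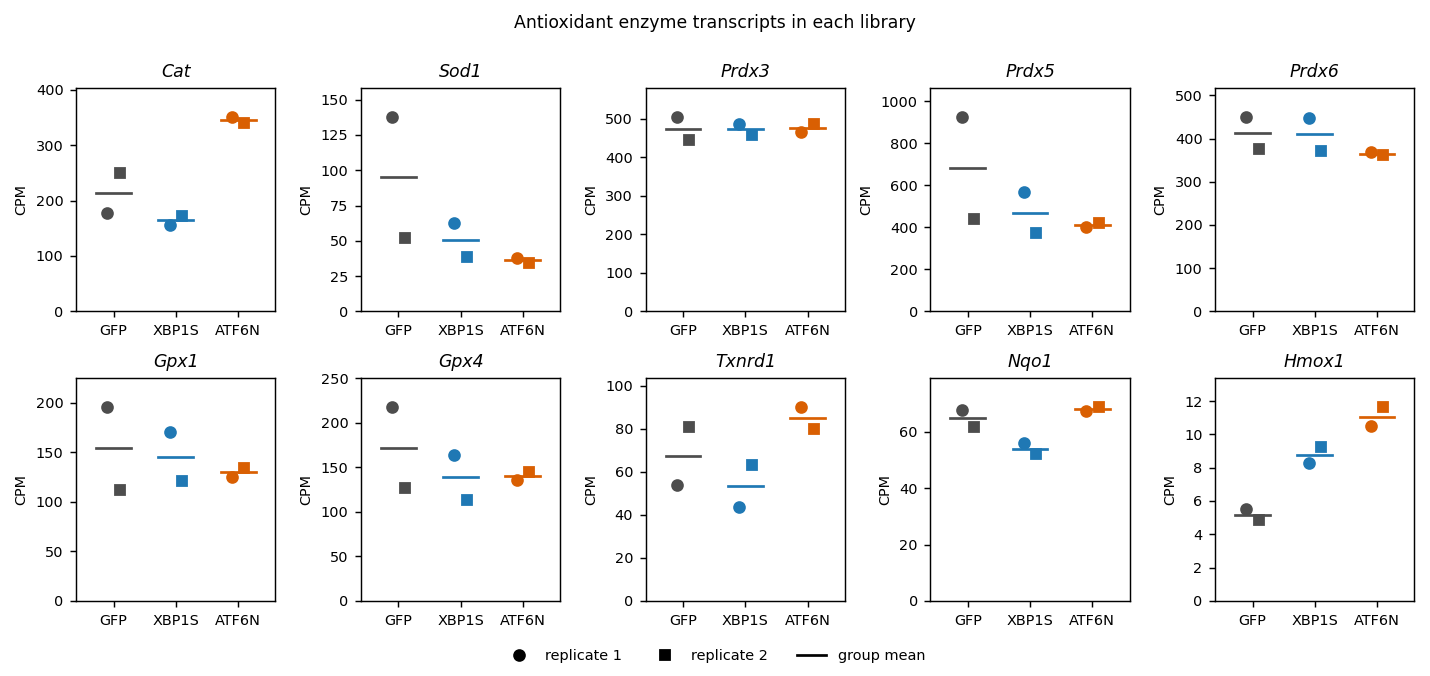
Level of each of the 10 genes in each of the 6 libraries, in CPM on a linear axis from 0 for each gene, with circles for replicate 1, squares for replicate 2 and a line at the group mean. Cat lay between 340 and 351 CPM in AAV-ATF6N, above all 4 other libraries, while Prdx3 stayed between 445 and 504 CPM throughout and Sod1 spread from 34.6 to 138 CPM.

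Cat encodes catalase, the peroxisomal enzyme that splits hydrogen peroxide into water and oxygen, and lies on chromosome 2 of mm10, the build of all gene positions given here, from 103453904 to 103485153 on the minus strand. It was counted at 177 and 249 CPM in AAV-GFP, at 157 and 172 CPM in AAV-XBP1S and at 351 and 340 CPM in AAV-ATF6N. Both AAV-ATF6N libraries were above all others and both AAV-XBP1S libraries below both controls, so that no groups overlapped. The direct comparison of AAV-ATF6N with AAV-XBP1S gave 2.10-fold, a log2 fold change of 1.07 (SE 0.23), with an edgeR adjusted p of 0.107, which misses the threshold of 0.05. It stayed between 0.96 and 1.14 under every alternative tried. It did not pass with DESeq2's size factors in edgeR (adjusted p = 0.108) or with robust estimation. It did pass without a filter on low counts (adjusted p = 0.0309), with DESeq2 (0.00223) and with a correction for gene length (0.0186). The same held with only the 4 libraries of the comparison (0.0216). The fits in which it passed also called many more genes over all, as given further on. Passing also held without AAV-GFP replicate 1 (0.0196) or without AAV-GFP replicate 2 (0.0232), neither of which is part of the comparison itself. Over its 13 alternatives the adjusted p ran from 0.00223 to 0.858.

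Against the control, Cat in AAV-ATF6N had a log2 fold change of 0.70 (SE 0.22, 1.62-fold, edgeR adjusted p = 0.304). That value rested on the control libraries. Without AAV-GFP replicate 1 it was 0.47, and without AAV-GFP replicate 2 it was 0.98. In AAV-XBP1S the log2 fold change was -0.37 (SE 0.22, adjusted p = 0.572), or -0.60 without AAV-GFP replicate 1 and -0.07 without AAV-GFP replicate 2. The difference between the factors was thus steadier than either difference from the control.

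Other measures moved with Cat across the groups. Summed cardiomyocyte markers were 126664 and 123203 CPM in AAV-GFP, 98941 and 104777 CPM in AAV-XBP1S and 144494 and 142356 CPM in AAV-ATF6N, with none of the 10 at 0. The sum was in the order of Cat but single markers were not. Myh6, the marker with the highest mean, stood at 22991 and 41121, 26506 and 44246, and 66565 and 65071 CPM, while Tnnt2, Tnni3, Myl2 and Myl3 lay below both controls in AAV-ATF6N. Of the 10 markers 6 had a log2 fold change below 0 there, with a median of -0.09. Myh6 is 6079 bases long, while Tnnt2, Tnni3, Myl2 and Myl3 have 1193, 824, 633 and 898 bases. Short genes were relatively high in AAV-GFP replicate 1, and the part of gene length in this split was not tested. Summed endothelial markers (9 of 9 found, none at 0) ran the other way, at 713 and 964, 1106 and 1428, and 639 and 594 CPM. The Y-linked gene Ddx3y followed the order of Cat too, at 11.6 and 21.0 CPM in AAV-GFP, 0.0215 and 0 CPM in AAV-XBP1S and 94.0 and 89.7 CPM in AAV-ATF6N. Xist, made from the inactive X chromosome, stood at 24.6 and 7.88, 43.1 and 20.2, and 0.197 and 0.0919 CPM. Eif2s3y, Uty and Kdm5d, also Y-linked, had 0 counts in both AAV-XBP1S libraries. The labels give no sex, and the delivered factor cannot be told apart from this difference between the groups in sex-linked genes. That holds for every gene and every comparison given here. The part of the marker levels in the values of Cat was not tested.

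The genes most like Cat across the 6 libraries, by Pearson correlation of log2 CPM among 8005 genes with a mean of at least 10 CPM, were Atp1b1 (r = 0.997), Exoc3 (r = 0.995), Paip2b (r = 0.994), Nop2 (r = 0.994) and Adamtsl5 (r = 0.994). Atp1b1, a subunit of the sodium pump, ran from 221 to 279 CPM, a far narrower span than that of Cat. With 6 libraries in 3 groups and so many genes ranked, such values are a description of a shared order only.

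Sod1 encodes the copper and zinc superoxide dismutase of the cytosol (chromosome 16, 90220742 to 90226324). It was counted at 138 and 52.2 CPM in AAV-GFP, 62.3 and 38.8 CPM in AAV-XBP1S and 37.9 and 34.6 CPM in AAV-ATF6N. The AAV-ATF6N libraries were the lowest, and AAV-GFP replicate 1 was far above every other library. Its log2 fold change was -1.39 (SE 0.46, edgeR adjusted p = 0.316) in AAV-ATF6N and -0.91 (SE 0.46, adjusted p = 0.515) in AAV-XBP1S. Without AAV-GFP replicate 1 these were -0.53 and -0.05, and without AAV-GFP replicate 2 they were -1.91 and -1.42. With DESeq2 the adjusted p in AAV-ATF6N was 0.0580. In the authors' deposited table Sod1 passes in AAV-ATF6N, at -1.38 on the log2 scale (adjusted p = 0.0364). The kits named in the labels do not mark strand, and Sod1 overlaps 645 bases of Scaf4 on the other strand, so reads there cannot be assigned to either.

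The peroxiredoxins reduce peroxides through a reactive cysteine, Prdx3 in mitochondria, Prdx5 in several compartments and Prdx6 with the help of glutathione. Prdx3 (chromosome 19, 60864066 to 60874538) was counted at 504 and 445 CPM in AAV-GFP, 487 and 458 CPM in AAV-XBP1S and 465 and 487 CPM in AAV-ATF6N. All 3 groups overlapped, the highest library was 1.13 times the lowest, and the log2 fold changes against AAV-GFP were -0.01 and 0.01 (SE 0.18 each) in AAV-XBP1S and AAV-ATF6N. Prdx6 (chromosome 1, 161240112 to 161251166) had 450 and 377, 449 and 371, and 369 and 361 CPM, with log2 fold changes of -0.01 (SE 0.20) and -0.18 (SE 0.20). The AAV-ATF6N libraries were the lowest for Prdx6, by a margin smaller than the gap between the AAV-GFP libraries. Prdx6 has a close copy, Prdx6b, and a pseudogene, so its counts are uncertain to the extent that reads were shared.

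Prdx5 (chromosome 19, 6906819 to 6909645) varied more. Its libraries stood at 924 and 438 CPM in AAV-GFP, 567 and 372 CPM in AAV-XBP1S and 400 and 418 CPM in AAV-ATF6N. AAV-GFP replicate 1 was the highest by a wide margin and the other 5 libraries ran from 372 to 567 CPM. The log2 fold changes were -0.54 (SE 0.38, edgeR adjusted p = 0.630) in AAV-XBP1S and -0.74 (SE 0.38, adjusted p = 0.397) in AAV-ATF6N. Without AAV-GFP replicate 1 they became 0.10 and -0.10, so this library decided the size and, in AAV-XBP1S, the direction. Without AAV-GFP replicate 2, Prdx5 in AAV-ATF6N had -1.16.

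The glutathione peroxidases are selenoproteins. Gpx1 acts on soluble peroxides and Gpx4 on lipid peroxides in membranes. Gpx1 (chromosome 9, 108339080 to 108340344) was counted at 196 and 112 CPM in AAV-GFP, 170 and 121 CPM in AAV-XBP1S and 126 and 134 CPM in AAV-ATF6N, and all groups overlapped. Its log2 fold changes were -0.08 (SE 0.31) and -0.25 (SE 0.31) against AAV-GFP. Gpx4 (chromosome 10, 80053510 to 80056439) had 218 and 126, 164 and 114, and 136 and 145 CPM, again with overlapping groups, and log2 fold changes of -0.31 (SE 0.31) and -0.29 (SE 0.31). Without AAV-GFP replicate 1 the direction turned, to 0.37 and 0.21 for Gpx1 and to 0.13 and 0.15 for Gpx4. With a correction that takes a trend on gene length out of each library, Gpx4 in AAV-ATF6N was 0.14. Mouse pseudogenes of Gpx4 exist, so its counts carry the same uncertainty as those of Prdx6.

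Txnrd1 encodes the cytosolic thioredoxin reductase, which renews thioredoxin with NADPH (chromosome 10, 82833951 to 82897724). It was counted at 53.8 and 80.8 CPM in AAV-GFP, 43.8 and 63.2 CPM in AAV-XBP1S and 90.2 and 80.1 CPM in AAV-ATF6N. Its AAV-ATF6N libraries were above both of AAV-XBP1S and overlapped AAV-GFP. The direct comparison of the factors gave a log2 fold change of 0.67 (SE 0.28, edgeR adjusted p = 0.382), against 0.34 (SE 0.28) and -0.33 (SE 0.28) for AAV-ATF6N and AAV-XBP1S over AAV-GFP. Without AAV-GFP replicate 1 the value for AAV-ATF6N over the control was 0.08. Txnrd1 overlaps Eid3 on its own strand and Gm38560 and Gm47073 on the other, so some of its reads may belong to them.

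Nqo1, a quinone reductase and a standard NRF2 target (chromosome 8, 107388225 to 107403205), was counted at 67.8 and 61.8 CPM in AAV-GFP, 56.0 and 52.1 CPM in AAV-XBP1S and 67.6 and 68.9 CPM in AAV-ATF6N. The AAV-XBP1S libraries were below all 4 others, while AAV-ATF6N and AAV-GFP overlapped. The log2 fold change was -0.26 (SE 0.19, edgeR adjusted p = 0.632) in AAV-XBP1S and 0.07 (SE 0.19, adjusted p = 0.842) in AAV-ATF6N. With a correction for gene length the latter was 0.34.

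Hmox1, the inducible heme oxygenase that breaks heme into biliverdin, iron and carbon monoxide (chromosome 8, 75093618 to 75100593), was the least abundant of the 10 genes. It was counted at 5.50 and 4.85 CPM in AAV-GFP, 8.28 and 9.24 CPM in AAV-XBP1S and 10.5 and 11.7 CPM in AAV-ATF6N. All 4 treated libraries were above both controls, and both of AAV-ATF6N were above both of AAV-XBP1S. The log2 fold change was 1.10 (SE 0.23, 2.14-fold, edgeR adjusted p = 0.139) in AAV-ATF6N and 0.76 (SE 0.23, 1.69-fold, adjusted p = 0.294) in AAV-XBP1S, and the factors differed by 0.34 (SE 0.22, adjusted p = 0.576). The value in AAV-ATF6N lay between 1.02 and 1.36 under every alternative, and 1.19 without AAV-GFP replicate 1. It passed with DESeq2 (adjusted p = 0.00388) and with a correction for gene length (0.0451). It did not pass without a filter on low counts (0.0727) or with the replicate number as a block (0.0803). In the authors' deposited table Hmox1 in AAV-ATF6N has a log2 fold change of 1.10 and an adjusted p of 0.0648.

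**Figure D2:**
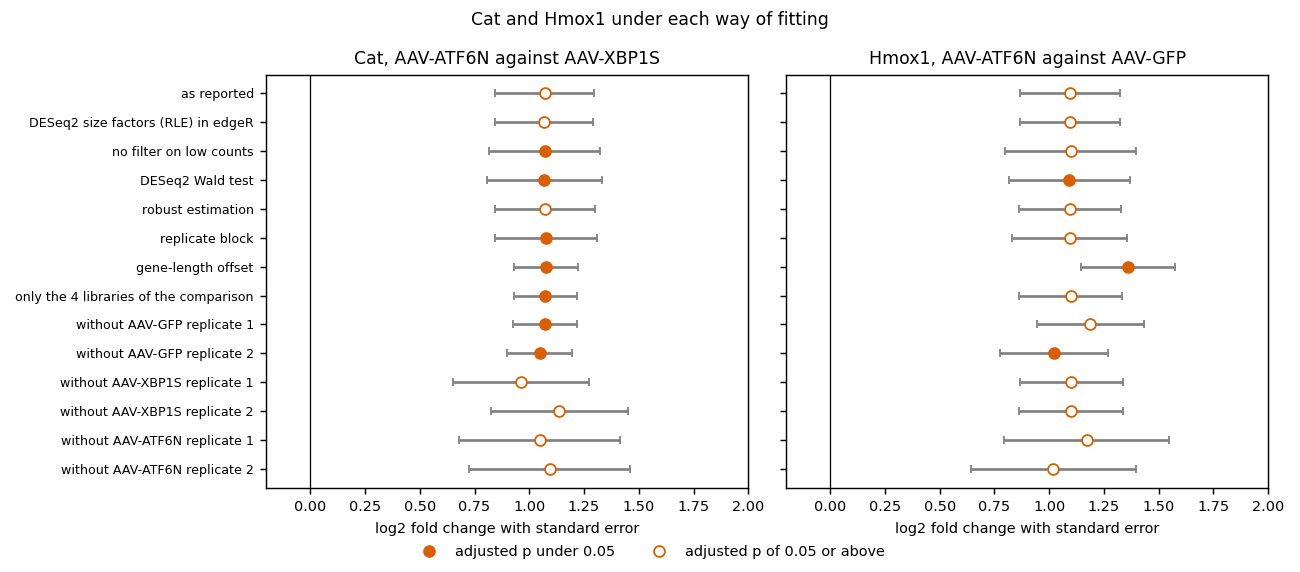
Log2 fold change, with bars of 1 standard error, of Cat in AAV-ATF6N against AAV-XBP1S and of Hmox1 in AAV-ATF6N against AAV-GFP, as reported and under each alternative way of processing or left-out library. Filled points have an adjusted p under 0.05. Cat stays between 0.96 and 1.14 and Hmox1 between 1.02 and 1.36.

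Macrophages express Hmox1 strongly, and the sum of their markers moved with it in part, but single markers did not all do so. The summed level of 11 macrophage markers, all found and none at 0, was 47.4 and 49.0 CPM in AAV-GFP, 73.3 and 62.2 CPM in AAV-XBP1S and 65.2 and 64.6 CPM in AAV-ATF6N. Like Hmox1, the sum was higher in all 4 treated libraries than in the controls. Unlike Hmox1, it was not higher in AAV-ATF6N than in AAV-XBP1S. Of the 11 markers, 5 lay above both controls in AAV-XBP1S and 7 in AAV-ATF6N, beside 19.1% and 27.9% of all genes. The means of Cd68 (2.17 to 1.67 CPM) and C1qa (4.49 to 3.81 CPM) were lower in AAV-ATF6N than in AAV-GFP. That of Cd14 was lower in AAV-XBP1S (3.48 to 2.98 CPM). Fibroblast markers (8 of 8 found, none at 0) summed to 468 and 605, 813 and 967, and 830 and 795 CPM. The part of these levels in the values of Hmox1 was not tested.

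**Figure D3:**
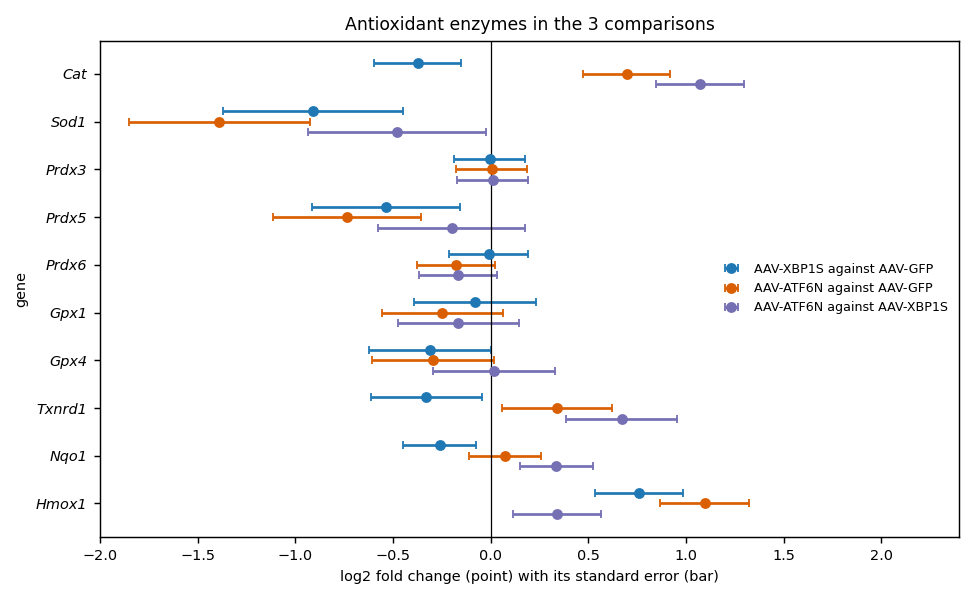
Log2 fold change of each of the 10 genes in the 3 comparisons, with bars of 1 standard error from the edgeR fit. Cat has the largest value in AAV-ATF6N against AAV-XBP1S at 1.07, Hmox1 the largest positive value in AAV-ATF6N against AAV-GFP at 1.10 and Sod1 the largest negative value there at -1.39.

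No member passed an adjusted p of 0.05 in the edgeR fit in any comparison. In AAV-XBP1S against AAV-GFP, 0 of 10 passed beside 0.315% of all genes tested. At an unadjusted p under 0.05 the count was 1 of 10, Hmox1, beside 11.6% of all genes. For AAV-ATF6N against AAV-GFP it was 0 of 10 beside 0.514%, and 3 of 10 (Cat, Sod1 and Hmox1) beside 13.5% without adjustment. For AAV-ATF6N against AAV-XBP1S it was 0 of 10 beside 0.226%, and 1 of 10, Cat, beside 13.2%. DESeq2 called 0, 1 (Hmox1) and 1 (Cat) of the 10 in the same order, beside 520, 593 and 839 of the 14587 genes.

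Groups that did not overlap were common among all genes as well. Against AAV-GFP, AAV-XBP1S was above both controls in 1 gene of 10 (Hmox1) and below both in 2 (Cat and Nqo1), beside 19.1% and 16.8% of all genes. AAV-ATF6N was above both controls in 2 (Cat and Hmox1) and below both in 3 (Sod1, Prdx5 and Prdx6), beside 27.9% and 26.7%. Between the factors, AAV-ATF6N was the higher in 4 (Cat, Txnrd1, Nqo1 and Hmox1) and the lower in 2 (Sod1 and Prdx6), beside 30.1% and 26.8%. These counts are near the share in all genes. The median log2 fold change of the 10 genes was -0.29 in AAV-XBP1S and -0.09 in AAV-ATF6N, against -0.01 and -0.02 over all genes tested. The sign rested on AAV-GFP replicate 1, without which these medians were 0.09 and 0.12. With the gene-length correction they were -0.14 and 0.18.

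The difference between the libraries of a group varied with gene length. In AAV-GFP, replicate 1 exceeded replicate 2 by 1.40 on the log2 scale for Sod1 (648 bases), by 1.08 for Prdx5 (688 bases), by 0.81 for Gpx1 (1047 bases) and by 0.79 for Gpx4 (1201 bases). Genes of middle length differed by 0.13 to 0.25, while Cat (2551 bases) had -0.49 and Txnrd1 (4019 bases) -0.59. In AAV-XBP1S the same span ran from 0.68 for Sod1 to -0.53 for Txnrd1, and in AAV-ATF6N all 10 lay between -0.15 and 0.17. Over all genes tested, the median in AAV-GFP went from 0.93 near 637 bases through -0.09 near 2495 bases to -0.45 near 4712 bases, and was -0.13 in the longest genes. Several of the 10 genes thus lay away from the median of genes of their length. In AAV-GFP, Sod1, Gpx1, Gpx4 and Prdx6 were above the upper quartile of their length bin. Cat and Prdx3 were below the lower quartile of theirs.

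**Figure D4:**
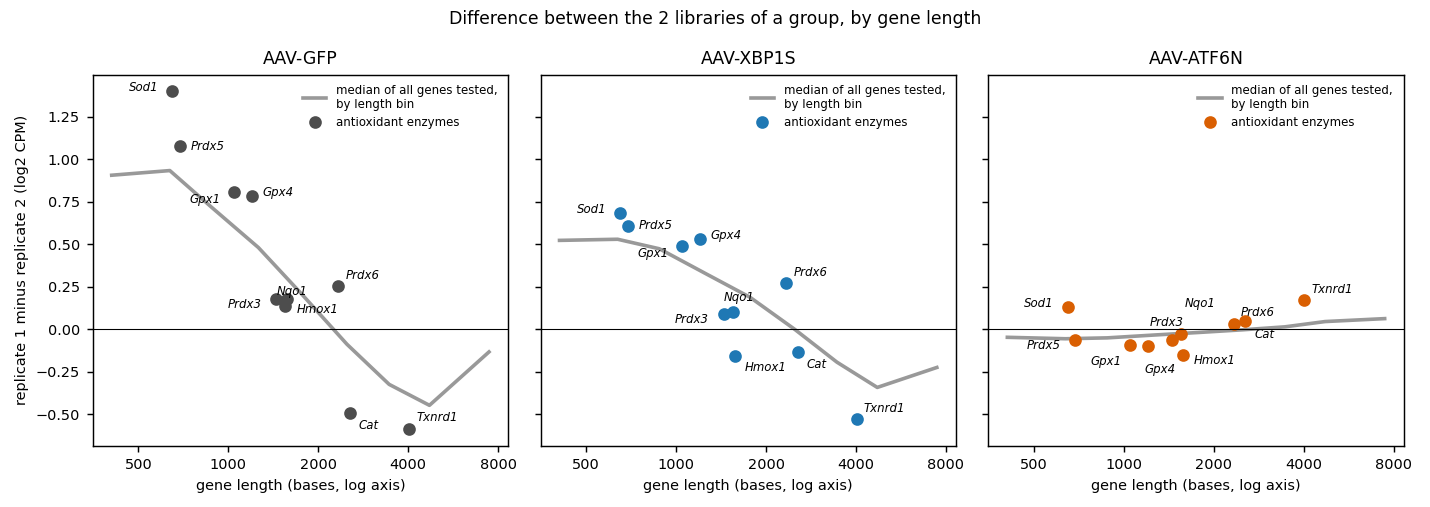
Replicate 1 minus replicate 2 on the log2 CPM scale against gene length on a log axis, for the 10 genes (points) and as the median of all genes tested by length bin (grey line), in each group. In AAV-GFP the points fall from 1.40 for Sod1 to -0.59 for Txnrd1, with Sod1 above the grey line and Cat, at -0.49, below it, and in AAV-ATF6N they stay between -0.15 and 0.17.

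When a smooth trend on gene length was taken out of each library, Sod1 came to 79.3 and 61.2 CPM in AAV-GFP, 50.7 and 46.5 CPM in AAV-XBP1S and 46.6 and 40.9 CPM in AAV-ATF6N, and its log2 fold change in AAV-ATF6N to -0.68 (edgeR adjusted p = 0.133). AAV-GFP still lay above both treated groups, which now overlapped each other. Prdx5 came to 543 and 510, 463 and 443, and 490 and 493 CPM, with a log2 fold change of -0.10 in AAV-ATF6N. Cat hardly moved and its control libraries stayed apart, at 183 and 238, 157 and 168, and 348 and 338 CPM. Hmox1 came to 4.43 and 4.98, 7.44 and 9.81, and 11.5 and 12.6 CPM, and its groups remained apart.

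The sum of red-cell markers moved with Sod1 and Prdx5 as well, but single markers did not all do so. Of 8 erythroid markers 7 were found, and they summed to 278 and 131 CPM in AAV-GFP, 106 and 70.5 CPM in AAV-XBP1S and 42.1 and 41.0 CPM in AAV-ATF6N. The sum was led by the beta globin listed as Beta-s, a short gene of 639 bases, at 265 and 118 CPM in AAV-GFP. Hba-a1 and Hba-a2, the alpha globins, were listed at 0 in all 6 libraries. Alas2, the erythroid enzyme of heme synthesis, fell in AAV-ATF6N with a log2 fold change of -1.75 (edgeR adjusted p = 0.0470). Its AAV-GFP libraries did not differ as those of Sod1 did, at 12.2 and 12.2 CPM, and Slc4a1 stood at 0.325 and 0.786 CPM there. The part of red-cell RNA in the values of Sod1 and Prdx5 was not tested, nor that of gene length in the sum.

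Related genes were described from lists of the same pathways. In none of the 7 lists did a gene pass the edgeR test in any comparison, so the values that follow describe genes of small p and not changes. Among 12 enzymes of the same families, the median log2 fold change was -0.08 in AAV-XBP1S and -0.32 in AAV-ATF6N. Sod2, the mitochondrial superoxide dismutase, stood at 1268 and 983 CPM in AAV-GFP, 975 and 796 CPM in AAV-XBP1S and 903 and 913 CPM in AAV-ATF6N (log2 fold changes -0.35 and -0.31, SE 0.21 each). Both treated groups lay below both controls for Sod2 and for Txnrd2, the mitochondrial thioredoxin reductase (-0.46 and -0.32, SE 0.23 each). Prdx1 and Prdx4, the cytosolic and the ER peroxiredoxin, had -0.45 and -0.48 in AAV-ATF6N. The list median in AAV-ATF6N was 0.038 with the gene-length correction and -0.070 without AAV-GFP replicate 1. In AAV-XBP1S it was 0.068 and 0.18 in the same order.

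Among 21 genes of the glutathione system the medians were -0.20 and -0.45. Gstm1 and Gstm2, glutathione transferases of near-identical sequence whose reads may be shared, had log2 fold changes of -0.76 (SE 0.22) and -1.0 (SE 0.31) in AAV-ATF6N. Glrx5, which serves iron and sulfur cluster assembly in mitochondria, had -0.75 in AAV-XBP1S and -0.71 in AAV-ATF6N (SE 0.33 each), and Mgst1, a membrane glutathione transferase, had -0.58 and -0.31 (SE 0.24 each). In AAV-ATF6N, 13 of the 21 genes lay below both controls, beside 26.7% of all genes, and 18 had a fold change below 0. With the gene-length correction 10 of the 21 were below 0 and the median was 0.036, and without AAV-GFP replicate 1 it was -0.095. In AAV-XBP1S the median was -0.025 with that correction and 0.045 without AAV-GFP replicate 1.

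Among 14 genes of the thioredoxin system and repair the medians were -0.22 and -0.28. In AAV-ATF6N the median was -0.035 with the gene-length correction and -0.086 without AAV-GFP replicate 1. In AAV-XBP1S it was -0.10 and -0.060 in the same order. Txnip, which binds and inhibits thioredoxin, was lower than both controls in both treated groups, at 230 and 186 CPM in AAV-GFP, 108 and 119 CPM in AAV-XBP1S and 171 and 150 CPM in AAV-ATF6N (log2 fold changes -0.87, SE 0.21, and -0.37, SE 0.20). It passed in AAV-XBP1S with DESeq2 (adjusted p = 0.0177). Srxn1, the sulfiredoxin that repairs overoxidized peroxiredoxins, lay above the controls in both, at 18.7 and 22.3, 30.6 and 32.4, and 32.1 and 33.4 CPM (0.62 and 0.67, SE 0.20 each). Txn1, a gene of 1051 bases, had 187 and 85.3 CPM in AAV-GFP and 72.4 and 77.7 CPM in AAV-ATF6N.

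Of 25 regulators and targets of NRF2 the medians were -0.26 and 0.07. The latter was 0.032 with the gene-length correction and -0.058 without AAV-GFP replicate 1. The median in AAV-XBP1S was -0.21 and -0.15 in the same order. The small Maf proteins, which pair with NRF2 on DNA, differed among themselves. In AAV-XBP1S Maff had -1.07 (SE 0.28), Mafg -0.70 (SE 0.22) and Mafk -0.04 (SE 0.24). In AAV-ATF6N Maff had -0.66 (SE 0.28), Mafg -0.31 (SE 0.22) and Mafk 0.78 (SE 0.24). Ugdh, which makes UDP-glucuronic acid, had 0.75 and 0.94 (SE 0.28 each). The fold change was above 0 for 7 of the 25 in AAV-XBP1S and for 13 of the 25 in AAV-ATF6N.

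For 18 genes of other selenoproteins and of selenoprotein synthesis the medians were 0.06 and -0.13. The latter was 0.11 with the gene-length correction and -0.0047 without AAV-GFP replicate 1. The median in AAV-XBP1S was 0.18 and 0.11 in the same order. Selm, an ER selenoprotein, stood at 32.2 and 16.3 CPM in AAV-GFP, 60.2 and 34.0 CPM in AAV-XBP1S and 17.3 and 20 CPM in AAV-ATF6N. Sepp1, the secreted selenium carrier, had 0.43 (SE 0.18) in AAV-XBP1S, and Ept1 had 0.81 (SE 0.27) in AAV-ATF6N. The gene listed as 2810407C02Rik, which RefSeq names Selenot, had -1.43 (SE 0.56) in AAV-ATF6N, with 44.9 CPM in AAV-GFP replicate 1 and 10.2 to 22.9 CPM in the other 5 libraries.

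Catalase resides in peroxisomes, and 31 other genes of that organelle had medians of -0.20 in AAV-XBP1S and -0.01 in AAV-ATF6N. With the gene-length correction these were -0.17 and -0.023, and without AAV-GFP replicate 1 they were -0.18 and -0.013. Ech1, an isomerase of fatty acid oxidation found in peroxisomes and mitochondria, stood at 3690 and 2675 CPM in AAV-GFP, 1634 and 1206 CPM in AAV-XBP1S and 1427 and 1545 CPM in AAV-ATF6N. Its log2 fold changes were -1.16 and -1.10 (SE 0.25 each, edgeR adjusted p = 0.167 and 0.166), and it passed with DESeq2 (0.00360 and 0.00630) and with the gene-length correction (0.00819 and 0.0238). Pex6 (-0.83 and -0.42, SE 0.18 each), needed to recycle the import receptor, and Pex11a (-0.92, SE 0.27, and -1.02, SE 0.28), which acts in peroxisome division, also lay below both controls in both treated groups. Cat, by contrast, lay above both controls in AAV-ATF6N.

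Among 15 genes that make oxidants the medians were 0.34 and 0.30. The latter was 0.11 with the gene-length correction and 0.054 without AAV-GFP replicate 1. The median in AAV-XBP1S was 0.22 and 0.23 in the same order. Cyba, the membrane subunit of NADPH oxidases, was at 83.5 and 41.8, 64.1 and 39.5, and 24.1 and 22.8 CPM, with -1.42 (SE 0.38) in AAV-ATF6N. Ero1lb, an ER oxidase that passes electrons to oxygen and yields hydrogen peroxide, was at 3.62 and 2.55, 4.45 and 4.39, and 7.28 and 6.92 CPM, with 1.20 (SE 0.27, edgeR adjusted p = 0.177; 0.0133 with DESeq2). Nox4, an oxidase isoform found in the heart, was at 0.953 CPM or below in every library and had no count in AAV-GFP replicate 1.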

How the data were processed

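The labels name a PureLink micro-scale kit for RNA, SMART-Seq v4 for cDNA, with SMART-Seq2 in a description, and Nextera XT for libraries. The deposited table of whole-number read counts per gene has the featureCounts header, and the submitters' processing notes name STAR, featureCounts and the mm10 build. No version, annotation release or strand setting is stated in the labels or headers. For AAV-XBP1S and for AAV-ATF6N over AAV-GFP the authors deposited a further table. Per the file headers, it holds a mean normalized signal (counts divided by size factors), log2 fold changes, their errors and Wald statistics as scores, and p-values raw and adjusted. DESeq2 and DESeq were used, without a stated role, per the submitters' processing notes.

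Groups came from the labels' treatment. The filter on low counts was filterByExpr of edgeR with a count minimum of 10. After TMM normalization, the quasi-likelihood test of edgeR (4.0.16, under R 4.3.3) was run in 1 model of the 3 groups over all 6 libraries, leaving 3 residual degrees of freedom. Tests were two-sided, adjusted by Benjamini and Hochberg's method over 14587 genes, with a threshold of 0.05. Standard errors (SE) of log2 fold changes were taken as their size over the square root of F. CPM use the TMM-adjusted library size, and RPKM divide CPM by gene length in kilobases as the deposited table gives it. The floor of 3 counts covers counting error only. The members and gene lists were chosen with earlier results of these data known. The genes named beside the 10 members were, of each list, those past the threshold or, with none, the 2 of smallest p for each factor over AAV-GFP, and the 5 genes most correlated with Cat. Of these, 1 gene is not reported here. Of 211 list names 1, Hbb-bt, was not matched. Alternatives were DESeq2's size factors, no filter, DESeq2 1.42.0, robust estimation, the replicate number as a block, a per-library trend on gene length as an offset, only the 4 libraries compared, and leaving out each library. The fits were tested on simulated data. All 6 columns of counts were used, leaving 0 unused.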

Additional observations from a re-analysis of the deposited data

Results flagged for a closer look

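Cat had log2 fold changes of opposite sign for the factors, but neither difference from the control passed. Against AAV-GFP it had 0.70 in AAV-ATF6N (edgeR adjusted p = 0.304) and -0.37 in AAV-XBP1S (0.572). Without AAV-GFP replicate 2 the latter was -0.07. Both AAV-ATF6N libraries lay above both controls and both AAV-XBP1S libraries below them. Of all genes, 27.9% were higher in AAV-ATF6N and 16.8% lower in AAV-XBP1S without overlap. The difference of 1.07 on the log2 scale was tested directly and had an edgeR adjusted p of 0.107, so it missed the threshold.

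Derl3, a known target of both factors, was higher in both treated groups, and its gain differed between them by 3.48 on the log2 scale (edgeR adjusted p = 0.0225). It stood at 0.244 and 0.449 CPM in AAV-GFP, 14.7 and 10.2 CPM in AAV-XBP1S and 136 and 142 CPM in AAV-ATF6N.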

How the results depend on the processing

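Over 30 member results, each under 13 alternatives, 349 values kept their direction and their side of the threshold, 13 newly passed, 0 lost a call and 28 changed sign, 17 of these for values under 0.1 on the log2 scale. The gene-length offset turned the sign of Prdx3 (0.12), Prdx6 (0.010) and Gpx1 (0.13) in AAV-XBP1S against AAV-GFP, of Gpx1 (0.23) and Gpx4 (0.14) in AAV-ATF6N against AAV-GFP, and of Prdx5 (0.12) and Gpx1 (0.10) between the factors. The cause was not tested. Leaving out a library turned the sign of others. Against AAV-GFP, AAV-XBP1S then ran from -0.059 to 0.084 for Prdx3, -0.95 to 0.10 for Prdx5, -0.11 to 0.13 for Prdx6, -0.40 to 0.37 for Gpx1, -0.62 to 0.13 for Gpx4 and -0.61 to 0.029 for Txnrd1. AAV-ATF6N ran from -0.070 to 0.097 for Prdx3, -0.58 to 0.21 for Gpx1 and -0.62 to 0.15 for Gpx4. Between the factors the ranges were -0.034 to 0.043 for Prdx3, -0.47 to 0.094 for Prdx5, -0.39 to 0.058 for Gpx1 and -0.23 to 0.26 for Gpx4. Members called in AAV-XBP1S against AAV-GFP numbered 0 throughout. In AAV-ATF6N against AAV-GFP they numbered 1 with DESeq2 and with the length offset. Member counts are not given for this comparison where a fit left 1 library in a group. Between the factors Cat was the 1 member called without a filter, with DESeq2, with the length offset and with only 4 libraries, and 0 to 1 were called with a library left out.

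Calls over all genes moved more. In the order AAV-XBP1S over the control, AAV-ATF6N over the control and AAV-ATF6N over AAV-XBP1S, the edgeR counts of 46, 75 and 33 became 233, 348 and 458 without a filter, 520, 593 and 839 with DESeq2, 289, 224 and 606 with the length offset, and 13, 8 and 663 with only 4 libraries. Leaving out a library gave 2 to 322, 6 to 3055 and 1 to 717. Genes called in the 7 pathway lists went from 0 to 1, 2 and 2 without a filter, 3, 4 and 4 with DESeq2 and 3, 2 and 9 with the length offset, to 3 in the last with only 4 libraries, and to 0 to 2, 0 to 32 and 0 to 3 with a library left out. Where this leaves 1 library in a group, it is assumed to vary like the others.

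Replicates of the same number did not deviate together in all groups. The correlation of their deviations was 0.823 between AAV-GFP and AAV-XBP1S, -0.236 between AAV-GFP and AAV-ATF6N and -0.282 between AAV-XBP1S and AAV-ATF6N, so the numbers were not taken to pair the libraries. With the replicate block 165, 237 and 356 genes were called, with 1 list gene in each comparison. Among the members Cat was the 1 called, between the factors (log2 fold change 1.08, adjusted p = 0.0463).

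With 2 libraries a group and 3 residual degrees of freedom, the fit finds only large and even differences. Depth did not limit the members, since Hmox1, the least abundant, had 346 to 851 counts per library.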

Other observations

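NRF2 itself, encoded by Nfe2l2 and chosen here after its values were seen, stood at 84.3 and 87.5 CPM in AAV-GFP, 79.5 and 74.9 CPM in AAV-XBP1S and 101 and 103 CPM in AAV-ATF6N. Its groups did not overlap, and the factors differed by a log2 fold change of 0.40 (SE 0.18, edgeR adjusted p = 0.406). Keap1, which marks NRF2 for degradation, had -0.34 and -0.22 against AAV-GFP (SE 0.21 each). Bach1, a repressor of Hmox1, stood at 7.75 and 6.64, 5.2 and 4.30, and 6.46 and 7.89 CPM, so the AAV-XBP1S libraries were the lowest.

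Sdf2l1, an ER chaperone cofactor, rose in both treated groups, from 18.1 and 12.3 CPM in AAV-GFP to 77.5 and 56.4 CPM in AAV-XBP1S and 153 and 166 CPM in AAV-ATF6N (log2 fold changes 2.14, SE 0.28, and 3.39, SE 0.29, edgeR adjusted p = 0.0447 and 0.00988). Markers of smooth muscle and pericytes, 7 of 7 found, summed to 860 and 785, 957 and 886, and 999 and 984 CPM.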
